A study of Rattus norvegicus with 15 samples.

Results

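The 9 genes described here encode inhibitors of cyclin-dependent kinases (Cdkn1a, Cdkn1b and Cdkn1c), the Gadd45 stress proteins (Gadd45a, Gadd45b and Gadd45g), the p53 antagonist Mdm2 and the G-type cyclins Ccng1 and Ccng2. They were taken as the identifiers of the count table that map to these symbols, and they are 9 of 16832 identifiers in all. The symbols were chosen with earlier results of these data known, so counts over the 9 genes describe a chosen set. All 9 passed the filter on low counts, as did 10575 identifiers in total. The RNA came from a rat cell line of olfactory origin, Odora, kept undifferentiated and exposed to the zinc salt zinc gluconate. The 5 groups of 3 libraries each were untreated control cells, cells at 100 µM zinc gluconate for 6 h, for 12 h and for 24 h, and cells at 200 µM for 6 h. No culture time is labelled for the control group, no group carries a genetic change by its labels, and a single cell line stands behind all of them. Libraries are numbered 1 to 3 in each group with no mention of separate cultures, and p-values therefore reflect only the spread among these libraries, possibly a technical one.

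The tumour suppressor p53 is a transcription factor stabilised by DNA damage and other stresses, and Mdm2 is both a target of p53 and the ligase that marks p53 for degradation. Cdkn1a (p21), Cdkn1b (p27) and Cdkn1c (p57) form the Cip/Kip family, which binds cyclin and kinase pairs and slows entry into S phase. Cdkn1a, Gadd45a and Ccng1 are classic p53 targets, but Cdkn1a and the Gadd45 genes are also induced without p53, Gadd45a among them by the ATF4 stress pathway and Gadd45b by NF-kB and TGF-beta signalling. Cdkn1b and Ccng2 are known targets of the FOXO factors in quiescent cells.

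The libraries held 10.3 to 35.2 M (mega) counts. Exposure was visible in the metallothionein gene Mt1, which had a mean of 44.9 CPM (counts per mega-count of the library, with totals adjusted by the trimmed mean of M values, TMM) in control cells, 1419 and 1440 at 100 µM for 6 and 12 h, and 571 and 585 at 100 µM for 24 h and 200 µM for 6 h. The 3 libraries labelled 24 h and the 3 labelled 200 µM fell into 3 pairs, 1 of each label, that were far more alike than any other libraries. Over genes, the chi-square divided by its degrees of freedom was 1.36 to 1.42 within these pairs, against at least 3.33 for any other pair of libraries and 3.50 to 19.6 between replicates of a group. These 2 groups are therefore given side by side, and each result for one of them must be read knowing that the other group holds nearly the same libraries. Transcripts of 6 heart muscle genes summed to 106, 26.7 and 107 CPM in the control libraries and 49.4 in replicate 1 of the 6 h group, against 0.156 to 0.608 in the other 11 libraries. A heart-transcript term used below marks the libraries that carry these transcripts, every control among them. It is told apart from the control group only by replicate 1 of the 6 h group. It therefore cannot decide what part these transcripts have in a difference from control. The labelled cell type is olfactory neuron. Of its markers, Cnga2, Rtp1, Gap43, Stmn2 and Elavl4 were at 0 in every library, where 3 counts equal 0.0853 to 0.290 CPM, while Ncam1 (86.0 to 105 CPM), Adcy3 (20.9 to 27.3) and Tubb3 (13.5 to 25.6) were measured in all. The 9 mature olfactory markers summed to 25.0 to 33.9 CPM and the 8 immature neuron markers to 113 to 131. The 10 fibroblast and mesenchyme markers all passed the filter on low counts and summed to 16274 to 21125 CPM. Their levels were uneven. Fn1 (4872 to 7189 CPM), Vim (3609 to 5550) and Col1a1 (3343 to 4632) were high, while Lum (0.748 to 18.9) and Dcn (0.143 to 3.49) were low. In replicate 1 at 12 h Dcn was at 0.143 CPM, where 3 counts equal 0.229 CPM. The lists of sustentacular and basal cell markers (5 genes) and glial markers (7 genes) summed to 12.8 to 17.5 and 9.84 to 16.7 CPM.

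The promoters of the 4 genes with the largest differences at 200 µM are shown because the results turn on these genes. The 250 bases before the start of transcription come from RefSeq on build GRCr8, which held 8 of the 9 genes. Capitals mark matches to any of these motifs on either strand: the metal response element core (TGCGCNC or TGCACNC), the C/EBP-ATF response element (TGATGNAA), the cyclic AMP response element (TGACGTCA), the AP-1 site (TGANTCA), a forkhead site (GTAAACA or ATAAACA), the p53 half-site, the CCAAT box (CCAAT) and the TATA box (TATAAA).
Cdkn1a, chr20:7150682-7150931, plus strand: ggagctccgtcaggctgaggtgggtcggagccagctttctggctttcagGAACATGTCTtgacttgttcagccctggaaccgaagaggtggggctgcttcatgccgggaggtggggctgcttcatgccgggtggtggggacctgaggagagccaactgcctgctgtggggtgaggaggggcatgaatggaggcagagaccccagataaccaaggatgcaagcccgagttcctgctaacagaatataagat
Cdkn1b, chr4:169491254-169491503, plus strand: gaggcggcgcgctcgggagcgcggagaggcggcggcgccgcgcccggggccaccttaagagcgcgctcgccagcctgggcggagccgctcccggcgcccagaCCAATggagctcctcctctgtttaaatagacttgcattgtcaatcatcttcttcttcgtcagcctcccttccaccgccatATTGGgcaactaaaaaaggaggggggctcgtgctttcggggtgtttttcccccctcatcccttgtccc
Gadd45a, chr4:97486800-97487049, minus strand: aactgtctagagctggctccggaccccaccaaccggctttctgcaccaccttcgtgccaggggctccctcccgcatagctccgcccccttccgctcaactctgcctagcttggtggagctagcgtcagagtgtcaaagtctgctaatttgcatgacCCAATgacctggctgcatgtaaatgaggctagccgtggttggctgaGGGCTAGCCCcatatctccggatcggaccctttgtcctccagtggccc
Gadd45b, chr7:9430719-9430968, minus strand: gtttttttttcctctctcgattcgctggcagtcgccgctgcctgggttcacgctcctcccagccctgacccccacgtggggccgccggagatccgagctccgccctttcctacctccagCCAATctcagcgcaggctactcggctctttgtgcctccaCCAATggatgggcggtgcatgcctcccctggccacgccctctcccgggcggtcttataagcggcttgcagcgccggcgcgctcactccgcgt
A p53 half-site match, GAACATGTCT, lay 201 to 192 bases before the start of Cdkn1a, and another, GGGCTAGCCC, lay 48 to 39 bases before the start of Gadd45a. One more stood before Ccng1 (GGGCAAGCCT, 232 to 223 bases before the start), so that 3 of the 8 promoters held one, against 6.64% of 33469 RefSeq promoters. CCAAT boxes stood in 6 of the 8 promoters and in 34% of all promoters. GC boxes (GGGCGG, not capitalised) also stood in 6 of the 8, against 30.5% of all, and the 4 printed promoters were 58.8% to 66.0% G or C against a median of 51.2%. The metal response element core was found in Gadd45g alone of the 8 and in 20.6% of all promoters, and the C/EBP-ATF element likewise in Gadd45g alone and in 3.4% of all. The TATA box (12.9% of all) was found in Gadd45g, the forkhead site (7.08%) in Mdm2, and the AP-1 site (6.34%) and cyclic AMP element (1.59%) in none of the 8. These are matches of letters in short windows and not measured binding sites.

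After 6 h at 100 µM zinc, 4 of the 9 genes fell (Gadd45a, Cdkn1a, Cdkn1b and Ccng2) and 2 rose (Gadd45b and Gadd45g), where 8.1% of all tested genes fell and 9.1% rose. The calls of Cdkn1a and Ccng2 at 6 h were lost in 4 and 7 of 18 alternative settings. In the groups at 100 µM for 24 h and 200 µM for 6 h, Gadd45b rose about 10-fold, Cdkn1a and Gadd45a rose several-fold and Mdm2 and Gadd45g rose by less than 2-fold, while Cdkn1b fell nearly 4-fold. Gadd45a thus stood below control at 6 h at the lower dose and far above it in these 2 groups. Across the 5 groups, 8 of the 9 genes differed in an overall test (edgeR's quasi-likelihood F test, Benjamini-Hochberg adjusted p under 0.05 over all genes tested), which 66.4% of all tested genes passed. Ccng1 was the exception (adjusted p = 0.532).

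**Figure D1:**
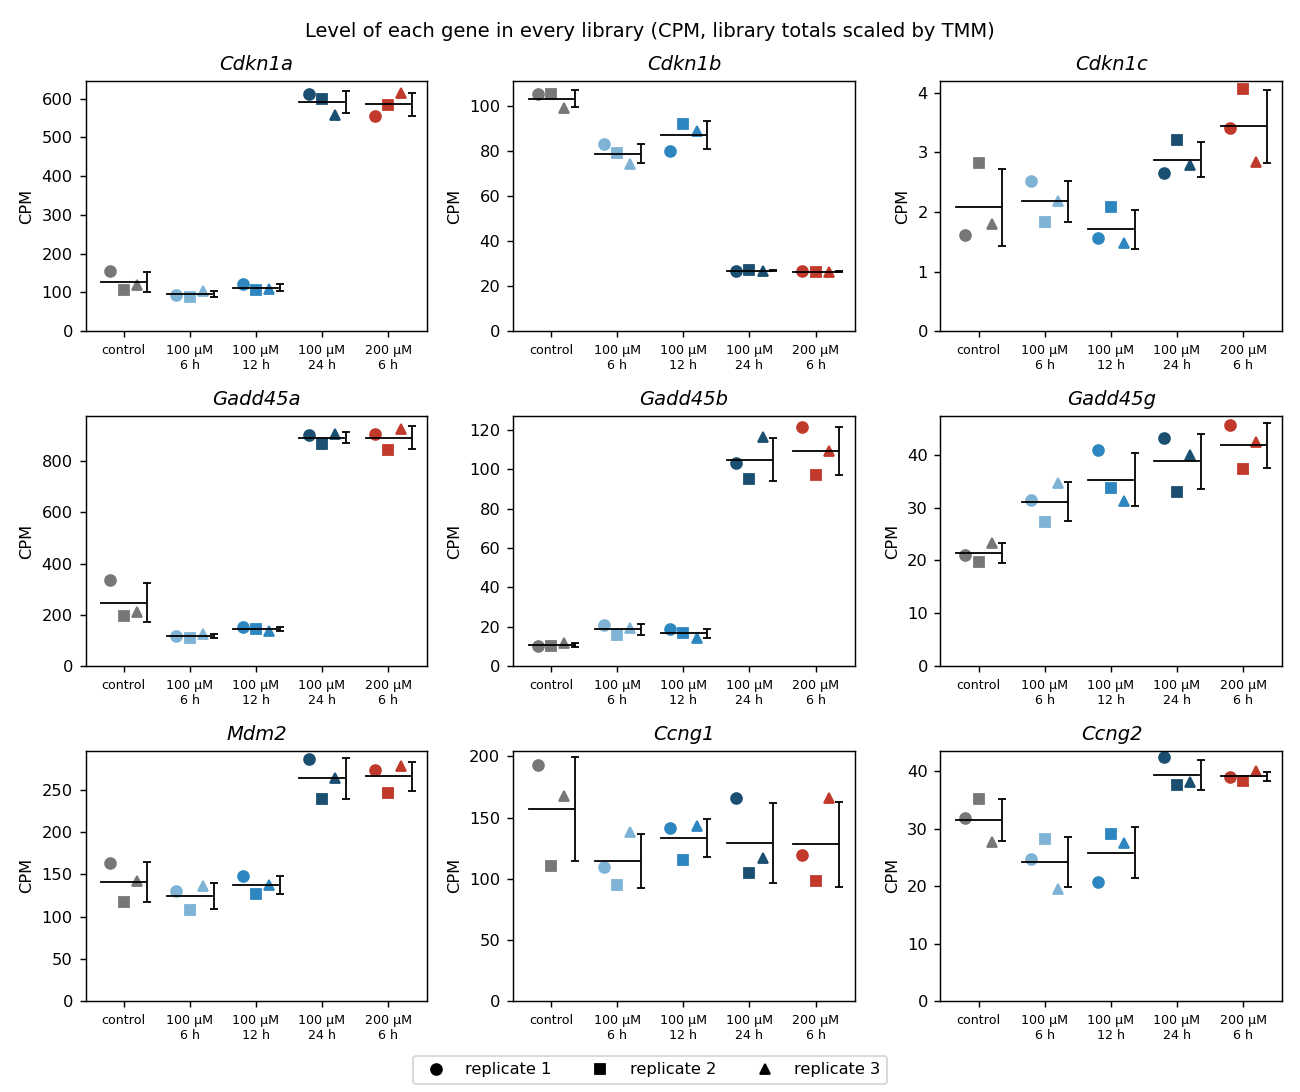
Level of each of the 9 genes in CPM (TMM scaled, linear axis from 0) in every library, by group; symbols give the replicate number, horizontal lines the group means and vertical bars the mean ± 1 SD of 3 libraries. Gadd45a lies at 196 to 335 CPM in control libraries, 109 to 125 at 100 µM for 6 h and 843 to 927 at 200 µM, whereas the Ccng1 libraries overlap between all 5 groups.

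Cdkn1a, which encodes the p53 target and cell cycle inhibitor p21, had 155, 106 and 120 CPM in control replicates 1 to 3, 93.6, 88.6 and 104.5 at 100 µM for 6 h, and 122, 106 and 108 at 12 h. At 24 h it had 613, 600 and 558 CPM, and at 200 µM for 6 h 556, 584 and 616. The 6 libraries of the last 2 groups all lay above the other 9, and the 6 h libraries all lay below the controls. The rise over control was 4.65-fold at 24 h (log2 ratio 2.22 ± 0.11 SE, adjusted p = 9.45e-12) and 4.61-fold at 200 µM (2.21 ± 0.11, adjusted p = 1.07e-11), and 2.46% of all tested genes changed by more at 200 µM. The fall at 6 h was small, -0.41 ± 0.11 (adjusted p = 0.0131). It was not called without control replicate 1 (-0.24, adjusted p = 0.0842), nor without 6 h replicate 1 (-0.39, 0.0554) or replicate 2 (-0.36, 0.0563), nor with a term for the libraries that carried heart transcripts (-0.44 ± 0.16, 0.096). At 12 h Cdkn1a stood at -0.18 ± 0.11 against control (adjusted p = 0.369), within the spread of the replicates.

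Cdkn1b, which encodes p27, went the other way. It had 105, 105 and 98.8 CPM in control libraries, 82.8, 79.2 and 74.3 at 6 h, and 80.0, 91.7 and 88.9 at 12 h. At 24 h it had 26.6, 27.1 and 26.8 CPM, and at 200 µM 26.5, 26.4 and 26.4. All treated libraries lay below all controls, and the 24 h and 200 µM libraries lay lowest, with an SD of 0.273 and 0.0918 CPM in these groups. The fall was 3.84-fold at 24 h (log2 ratio -1.94 ± 0.07, adjusted p = 2.12e-14) and 3.90-fold at 200 µM (-1.96 ± 0.07, adjusted p = 2.45e-14). In bulk RNA of this kind, less transcript per cell and fewer cells that carry it cannot be told apart. At 6 h the fall was smaller, -0.39 ± 0.06 (adjusted p = 0.000298), and at 12 h it was -0.25 ± 0.06 (adjusted p = 0.0238). At 12 h Cdkn1b was no longer called when control replicate 1 (adjusted p = 0.0932), control replicate 2 (0.0691), 12 h replicate 1 (0.151) or 12 h replicate 3 (0.0514) was left out, or when the heart-transcript term was in the fit (-0.14, 0.698).

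Cdkn1c, the third family member, was near the lower end of what could be measured, with 19 to 97 counts per library. Its means were 2.08 ± 0.65 CPM (SD, n = 3) in control cells, 2.18 ± 0.34 at 6 h, 1.71 ± 0.33 at 12 h, 2.88 ± 0.29 at 24 h and 3.43 ± 0.62 at 200 µM. The 3 libraries at 200 µM, at 3.41, 4.06 and 2.83 CPM, lay above the 3 controls at 1.62, 2.82 and 1.8, with the closest pair almost touching. The ratio to control at 200 µM was 1.63-fold (log2 0.70 ± 0.22, adjusted p = 0.00962), and it was not called without replicate 2 of that group (0.56, adjusted p = 0.059) or with library totals in place of TMM scaling (0.33, 0.184). At 24 h the log2 ratio was 0.46 ± 0.22 (adjusted p = 0.0738), and without control replicate 2 it was 0.75 (adjusted p = 0.00577). Its values at 6 h (0.11 ± 0.22, 95% interval -0.35 to 0.56) and 12 h (-0.29 ± 0.24) were within the spread of the replicates.

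The Gadd45 genes encode small acidic proteins that bind PCNA, cyclin B1 with Cdk1, and the stress kinase MTK1 (Map3k4). Gadd45a had 335, 196 and 211 CPM in control libraries, 118, 109 and 125 at 6 h, and 154, 143 and 137 at 12 h. At 24 h it had 903, 868 and 905 CPM, and at 200 µM 907, 843 and 927. No library of a treated group overlapped the controls: the 6 h and 12 h libraries lay below them and the 24 h and 200 µM libraries above. Gadd45a fell 2.11-fold at 6 h (log2 ratio -1.07 ± 0.14, adjusted p = 8.23e-05) and 1.71-fold at 12 h (-0.78 ± 0.14, adjusted p = 0.004). It rose 3.60-fold at 24 h (1.85 ± 0.14, adjusted p = 1.32e-08) and 3.61-fold at 200 µM (1.85 ± 0.14, adjusted p = 1.36e-08). Control replicate 1, at 335 CPM, was the highest of the controls and carried heart transcripts, as did replicate 3 at 211, and the part of these transcripts in the fall was not tested apart from a term for them in the fit. With that term the 6 h value was -1.07 and still called, and the 12 h value was -0.77 ± 0.26 and not called (adjusted p = 0.26). Without control replicate 1 the falls were smaller, -0.79 at 6 h and -0.49 at 12 h, and both were still called. A fit to the 6 libraries of control and 12 h alone also gave no call (-0.78 ± 0.22, adjusted p = 0.118).

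Gadd45b differed most from control among the 9 genes at 24 h and 200 µM. It had 10.4, 10.01 and 11.8 CPM in control libraries, 21.1, 15.9 and 19.2 at 6 h, and 19.0, 16.9 and 14.4 at 12 h. At 24 h it had 103, 94.9 and 116 CPM, and at 200 µM 122, 97.3 and 109. Every treated library lay above every control, and the 24 h and 200 µM libraries lay above all others. The rises over control were 1.77-fold at 6 h (log2 ratio 0.83 ± 0.12, adjusted p = 0.000154), 1.56-fold at 12 h (0.64 ± 0.13, adjusted p = 0.00547), 9.75-fold at 24 h (3.29 ± 0.12, adjusted p = 6.92e-14) and 10.2-fold at 200 µM (3.35 ± 0.12, adjusted p = 5.7e-14). At 200 µM 0.861% of all tested genes changed by more. With the heart-transcript term the 12 h ratio was 0.91 ± 0.21 and was not called (adjusted p = 0.0726).

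Gadd45g rose in all 4 treated groups. Control libraries had 21.1, 19.7 and 23.4 CPM, and the 12 treated libraries had 27.3 to 45.7, above all controls. The log2 ratios to control were 0.55 ± 0.12 at 6 h (1.46-fold, adjusted p = 0.0037), 0.72 ± 0.12 at 12 h (1.65-fold, adjusted p = 0.00132), 0.86 ± 0.12 at 24 h (1.81-fold, adjusted p = 5.43e-06) and 0.97 ± 0.12 at 200 µM (1.96-fold, adjusted p = 1.39e-06). With the heart-transcript term the 12 h value was 0.74 ± 0.22 and was not called (adjusted p = 0.183). Of the 8 promoters searched, its own alone matched the metal response element core (20.6% of all promoters) and the C/EBP-ATF element (3.4%). Gadd45b, which also rose in all 4 treated groups, had neither, and a part of these motifs in the rise was not tested.

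Mdm2 had 164, 117 and 143 CPM in control libraries, 130, 108 and 137 at 6 h, and 148, 127 and 137 at 12 h. At 24 h it had 287, 240 and 264 CPM, and at 200 µM 274, 246 and 278. The first 3 groups overlapped and the last 2 lay above them. Mdm2 rose 1.87-fold at 24 h (log2 ratio 0.90 ± 0.11, adjusted p = 1.96e-06) and 1.89-fold at 200 µM (0.92 ± 0.11, adjusted p = 1.7e-06). At 6 h it stood at -0.17 ± 0.11 (adjusted p = 0.31) and at 12 h at -0.04 ± 0.11 (adjusted p = 0.904) against control.

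Ccng1, which encodes cyclin G1 and is a p53 target like Mdm2, was called in no comparison of the fit to all libraries. Its libraries had 193, 110 and 167 CPM in control, 110, 94.5 and 138 at 6 h, and 142, 115 and 143 at 12 h. At 24 h they had 166, 105 and 117 CPM, and at 200 µM 120, 98.3 and 166. All groups overlapped. The log2 ratios to control were -0.45 ± 0.24 at 6 h (95% interval -0.98 to 0.08, adjusted p = 0.234), -0.23 ± 0.24 at 12 h, -0.28 ± 0.24 at 24 h and -0.29 ± 0.24 at 200 µM. With library totals in place of TMM scaling, Ccng1 was called lower at 24 h (-0.65, adjusted p = 0.0178) and at 200 µM (-0.66, adjusted p = 0.017). The 2 control libraries with the most heart transcripts, at 106 and 107 CPM, had 193 and 167 CPM of Ccng1, and the third had 26.7 and 110. The part of these transcripts in the Ccng1 level was not tested apart from the heart-transcript term in the fit. With that term Ccng1 was not called against control in any treated group. In every group, replicate 2 was the lowest for Ccng1 and for Mdm2, and in 4 of 5 groups it was the lowest for each of the 3 Gadd45 genes. A fit with a replicate block called Ccng1 lower at 6 h, 24 h and 200 µM. Its values are given with the other alternatives below, where the replicate numbers did not pair the libraries by the rule used.

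**Figure D2:**
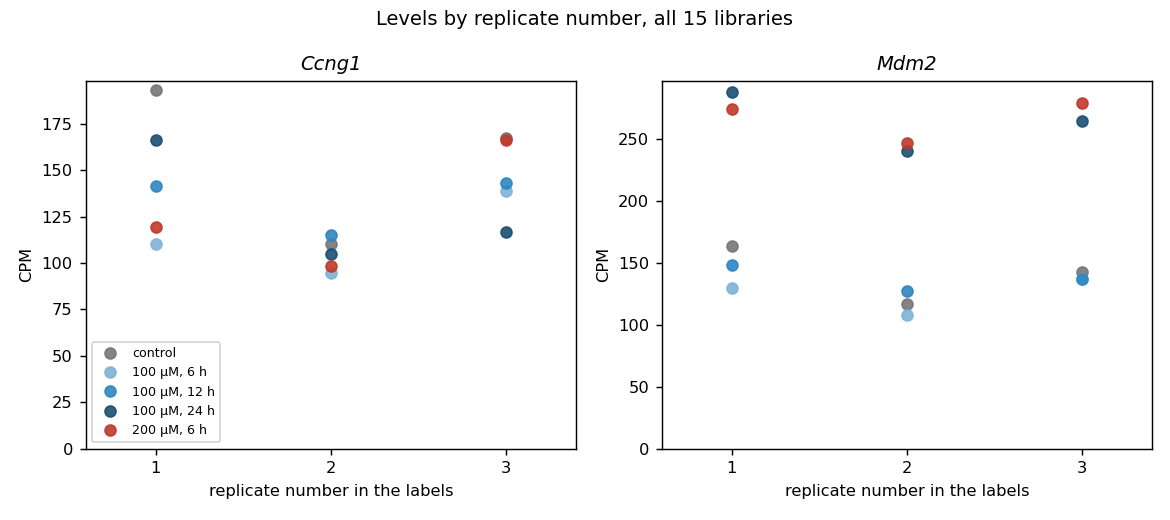
CPM of Ccng1 and Mdm2 (linear axes from 0) against the replicate number in the labels, with 1 point for each of the 15 libraries coloured by group. Replicate 2 is the lowest of its group in 5 of 5 groups for both genes.

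Ccng2, which encodes cyclin G2 and is a FOXO target, had 27.7 to 35.1 CPM in control libraries, 19.5 to 28.1 at 6 h and 20.7 to 29.1 at 12 h. At 24 h and 200 µM the 6 libraries had 37.6 to 42.4 CPM, above all others. The log2 ratios to control were -0.39 ± 0.12 at 6 h (adjusted p = 0.039), -0.29 ± 0.13 at 12 h (adjusted p = 0.193), 0.32 ± 0.12 at 24 h (1.25-fold, adjusted p = 0.0289) and 0.31 ± 0.12 at 200 µM (1.24-fold, adjusted p = 0.0356). Each of the 3 calls was lost in some alternative. The 6 h and control groups overlapped, and the 6 h fall was not called when control replicate 1 (adjusted p = 0.106) or 2 (0.133), or 6 h replicate 1 (0.0926) or 3 (0.182), was left out. With control replicate 3 left out the rises were not called (adjusted p = 0.132 at 24 h and 0.152 at 200 µM), and under library totals the ratios were -0.06 at 24 h and -0.07 at 200 µM, neither called.

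Counted over the 9 genes, 2 rose and 4 fell at 6 h, where 9.1% of all tested genes rose and 8.1% fell, and the median log2 ratio was -0.39 for the 9 and 0.00 for all genes. At 12 h 2 rose and 2 fell, against 3.36% and 2.97% of all genes. At 24 h 6 rose and 1 fell (29.7% and 31.3% of all genes), and at 200 µM 7 rose and 1 fell (29.4% and 31.1%). The median log2 ratios at 24 h and 200 µM were 0.86 and 0.92 for the 9 genes and -0.02 for all genes in both. Fitted to library totals without TMM scaling, the median of all genes shifted by -0.38 at 24 h and -0.37 at 200 µM. The split over the 9 genes was then 5 up and 2 down in both groups, with Ccng1 among those down and Ccng2 not called. Gadd45a, Gadd45b, Cdkn1a, Mdm2 and Gadd45g stayed called higher and Cdkn1b lower under that scaling. Over all called genes the share that was higher went from 48.7% to 16.2% at 24 h, from 48.5% to 16% at 200 µM, from 52.9% to 42.1% at 6 h and from 53.1% to 34% at 12 h. The 4 comparisons share the control libraries, so their values are set side by side and not counted as separate support for each other.

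**Figure D3:**
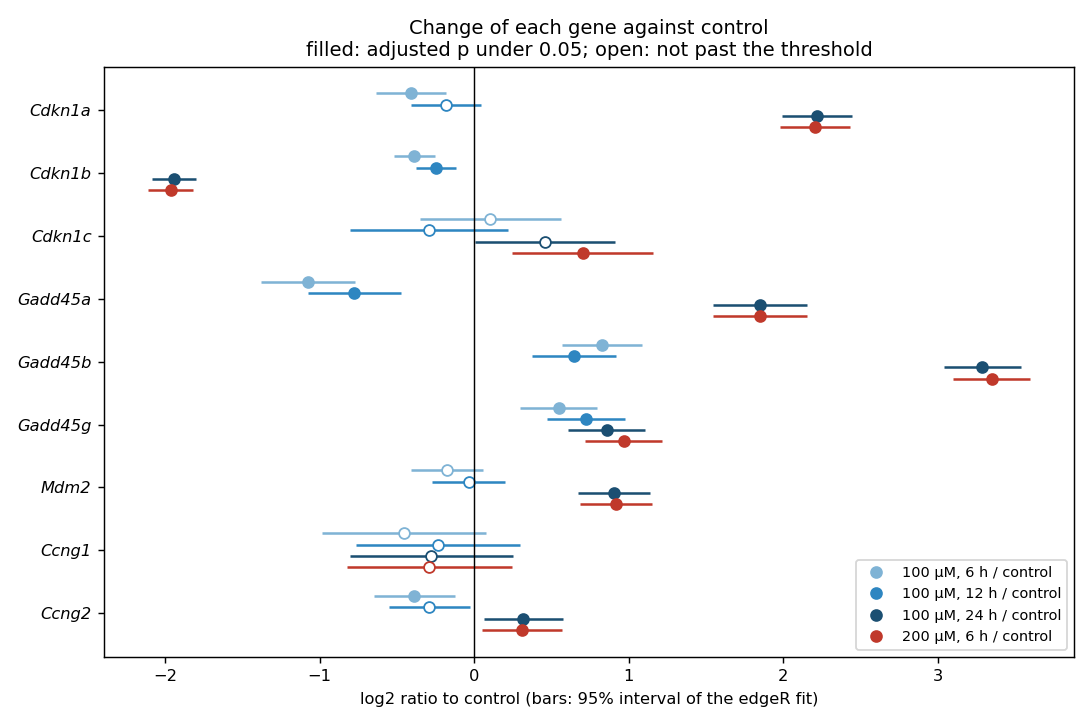
Log2 ratio to control of each of the 9 genes in the 4 treated groups, with bars of the 95% interval of the edgeR fit; filled points have an adjusted p under 0.05 and open points do not. Gadd45a lies at -1.07 at 100 µM for 6 h and at 1.85 at 24 h and 200 µM, and Cdkn1b lies at -1.94 and -1.96 in the last 2 groups.

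Dose was compared at 6 h, between libraries as they are labelled. Whether the alike libraries of the 24 h and 200 µM groups all carry the right label could not be settled from the files, and the values hold for the libraries labelled 200 µM. Against 100 µM, the libraries at 200 µM were higher for 7 of the 9 genes and lower for 1, where 26.5% of all tested genes were higher and 27.1% lower. Gadd45a differed most, 7.59-fold (log2 2.92 ± 0.15, adjusted p = 1.19e-10), and it stood below control at the lower dose and above it at the higher. Cdkn1a was 6.12-fold higher (2.61 ± 0.11, adjusted p = 1.77e-12), Gadd45b 5.74-fold (2.52 ± 0.12, adjusted p = 3.04e-12), Mdm2 2.13-fold (1.09 ± 0.11, adjusted p = 3.07e-07) and Ccng2 1.62-fold (0.70 ± 0.13, adjusted p = 0.000168). Cdkn1b was 2.99-fold lower (-1.58 ± 0.07, adjusted p = 9.57e-13). Gadd45g was 1.34-fold higher (0.42 ± 0.12, adjusted p = 0.00638), but at 0.08 and not called under library totals (adjusted p = 0.572). Cdkn1c stood at 0.60 ± 0.23 (adjusted p = 0.0343), a call lost without 6 h replicate 2 (0.0939) or 3 (0.0697), without 200 µM replicate 1 (0.0641) or 2 (0.147) and under library totals (0.25, 0.33). Under library totals 5 genes were higher and 1 lower, and the share of higher calls over all genes went from 49.4% to 14.6%. Ccng1 was at 0.17 ± 0.25 (adjusted p = 0.602).

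Time at 100 µM was compared between neighbouring times, as the libraries are labelled. With no control labelled for each time, length of exposure and time in culture cannot be told apart. Between 6 and 12 h none of the 9 genes was called by edgeR or by DESeq2, and 0.974% of all tested genes were called in either direction. In edgeR's fit across all genes Cdkn1b alone had an unadjusted p under 0.05, at 0.0433, and Gadd45a stood at 0.30 ± 0.14 (adjusted p = 0.47). In a fit to the 6 libraries of these groups alone, Gadd45a was called (0.29 ± 0.07, adjusted p = 0.0241). Between 12 and 24 h 6 genes rose and 1 fell, against 26.9% and 27.6% of all genes. Gadd45b rose by 2.64 ± 0.12, Gadd45a by 2.62 ± 0.15, Cdkn1a by 2.40 ± 0.11, Mdm2 by 0.94 ± 0.11, Cdkn1c by 0.75 ± 0.25 (adjusted p = 0.0165) and Ccng2 by 0.61 ± 0.13 on the log2 scale, and Cdkn1b fell by 1.69 ± 0.07. Gadd45g, at 0.13 ± 0.12 (adjusted p = 0.367), and Ccng1, at -0.04 ± 0.25 (adjusted p = 0.894), did not pass. Cdkn1c was not called when 12 h replicate 1 (adjusted p = 0.0511) or 3 (0.064) or 24 h replicate 2 (0.0598) was left out, nor under library totals (0.42, 0.15), where Ccng2 was not called either (0.27, 0.0822) and 4 genes were higher and 1 lower.

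The libraries at 100 µM for 24 h and at 200 µM for 6 h, which agreed in pairs, differed for none of the 9 genes in edgeR's test, for none at an unadjusted p under 0.05, and for 0% of all genes. Their log2 ratios ran from -0.24 ± 0.22 for Cdkn1c to 0.02. Within the 3 alike pairs the largest difference was 0.04 on the log2 scale for Cdkn1a, Cdkn1b and Gadd45a, 0.05 for Mdm2, 0.19 for Gadd45g and 0.34 for Cdkn1c. Ccng1, whose libraries varied widely within each group, had 166 and 166 CPM in 1 pair, 105 and 98.3 in another and 117 and 120 in the last. From 6 to 24 h at 100 µM 6 genes were higher and 1 lower (54.3% of all genes called in either direction). From 12 h at 100 µM to 6 h at 200 µM, groups that differ in both dose and time, it was also 6 and 1 (53.7% called).

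Other genes of the p53 pathway were called in both directions. Of 11 tested genes in the list of its upstream regulators, 2 rose and 4 fell at 24 h, where 29.7% of all tested genes rose and 31.3% fell, and at 200 µM 3 rose and 3 fell, where 29.4% and 31.1% did, with a median log2 ratio of -0.13 in both against -0.02 over all genes. The genes called lower at both 24 h and 200 µM included Ppm1d, a phosphatase that dampens p53 signalling (-0.63 ± 0.08 and -0.72 ± 0.08), and the DNA damage kinases Atm (-0.95 ± 0.14 and -0.92 ± 0.14) and Chek2 (-0.29 ± 0.10 and -0.43 ± 0.10). The kinase gene Hipk2 rose at 24 h (0.61 ± 0.14). Under library totals the list split into 0 higher and 9 lower at 24 h and 0 and 8 at 200 µM, so the rise of Hipk2 depends on the scaling. With the heart-transcript term it split into 1 higher and 2 lower at 24 h. Of all 10575 tested genes, library totals called 7990 at 24 h and 7889 at 200 µM, of which 16.2% and 16% were higher. The heart-transcript term called 3880 and 3898 of all tested genes in these groups. These counts over all genes are also the base for the splits of the other lists under these settings.

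Of 26 other p53 targets tested, 11 rose and 10 fell at 24 h, and 11 rose and 9 fell at 200 µM, beside the same shares of all genes (29.7% and 31.3%, then 29.4% and 31.1%). The median log2 ratio was 0.04 and 0.03, against -0.02 over all genes in both groups. Under library totals the split was 9 higher and 13 lower in both groups, and with the heart-transcript term it was 10 and 6 in both. The targets with the smallest adjusted p were the stress sensor Sesn2, which rose by 3.39 ± 0.07 at 24 h and 3.46 ± 0.07 at 200 µM on the log2 scale, the kinase gene Plk3 (3.32 ± 0.10 and 3.34 ± 0.10) and the transcriptional regulator Sertad1 (2.49 ± 0.07 and 2.46 ± 0.07). The antiproliferative gene Btg2, named after its values were seen, went from 46.4 ± 5.48 CPM in control cells to 863 ± 137 at 24 h and 854 ± 129 at 200 µM (SD, n = 3). Among those that fell, also named after their values were seen, were Zmat3, an RNA-binding protein gene (-1.14 ± 0.13 at 24 h), the DNA repair gene Xpc (-0.65 ± 0.08), and Rrm2b, a ribonucleotide reductase subunit gene (-0.66 ± 0.13). At 6 h 3 targets rose and 4 fell (9.1% and 8.1% of all genes). Sesn2, at 29.5 ± 2.61 CPM in control cells, was at 13.9 ± 0.545 (log2 ratio -1.08 ± 0.08, adjusted p = 2.3e-08), and the metabolic regulator Tigar stood at 0.39 ± 0.09. At 12 h 1 rose (Perp) and 1 fell (Sesn2, -0.52 ± 0.08), where 3.36% of all tested genes rose and 2.97% fell. With the heart-transcript term none was called at 12 h, where 50 of all 10575 tested genes were.

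**Figure D4:**
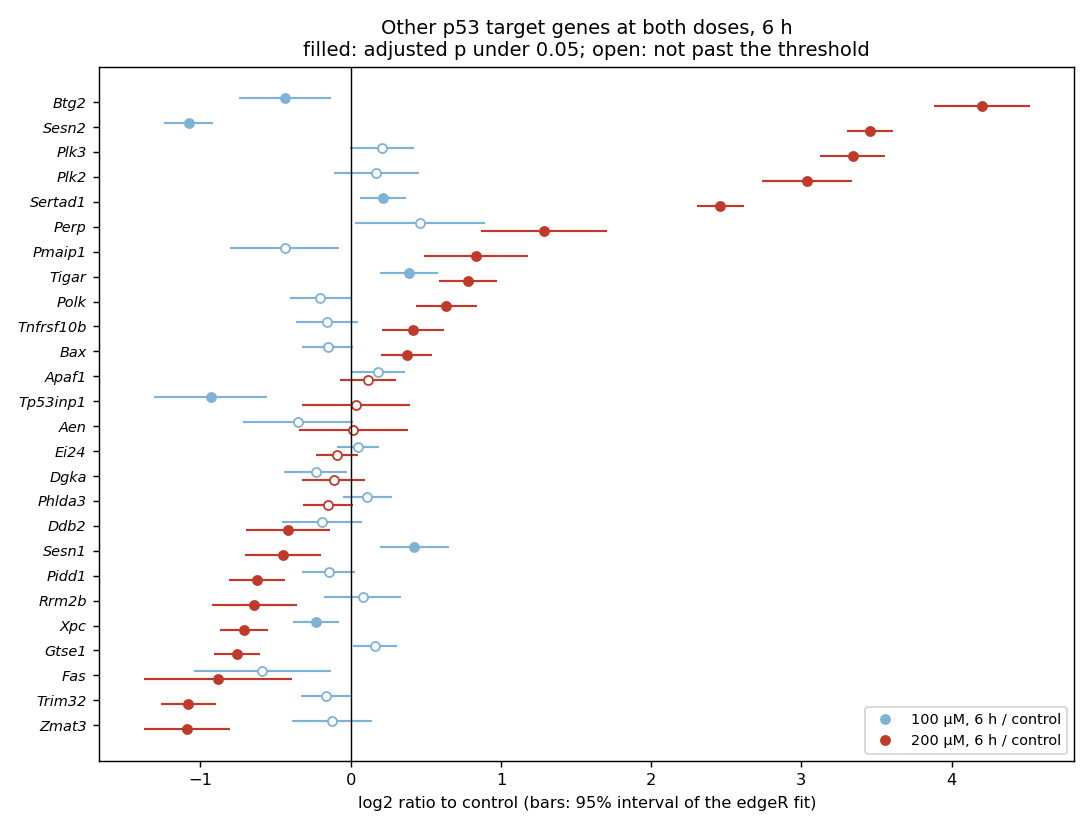
Log2 ratio to control of the 26 other p53 targets tested, at 100 µM and at 200 µM for 6 h, with bars of the 95% interval of the edgeR fit; filled points have an adjusted p under 0.05 and open points do not. At 200 µM the targets spread to both sides of 0, with 11 called higher, 9 called lower and 6 not called, and Btg2, Sesn2, Plk3, Plk2 and Sertad1 lie above the others, while at 100 µM 3 were called higher and 4 lower.

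Of the 4 tested CDK inhibitor genes outside the Cip/Kip family, Cdkn2c (p18) fell by 1.13 ± 0.08 at 24 h and by 1.11 ± 0.09 at 200 µM on the log2 scale, and Cdkn2b (p15) fell by 0.54 ± 0.06 and 0.55 ± 0.06. Among all tested genes 29.7% rose and 31.3% fell at 24 h, and 29.4% rose and 31.1% fell at 200 µM. At 6 h Cdkn2b alone was called (-0.30 ± 0.06, adjusted p = 0.00149), where 8.1% of all tested genes fell. With the heart-transcript term none was called at 6 h, where 933 of all 10575 tested genes were. Cdkn3, which encodes a CDK phosphatase, was called higher at 24 h (0.21 ± 0.07) and 200 µM (0.20 ± 0.07), but under library totals no gene of this list was higher with all 4 lower at 24 h and 3 lower at 200 µM. Library totals called 7990 of all 10575 tested genes at 24 h and 7889 at 200 µM, and 16.2% and 16% of these were higher. Cdkn2a, which is also in the list of upstream regulators, stood at 0.21 ± 0.08 at 200 µM under TMM scaling.

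The genes with a pattern most like each member were ranked by Pearson's r of log2 CPM over the 15 libraries, among 9935 genes. The libraries fall into 2 sets, the 6 of the 24 h and 200 µM groups and the other 9, so a high r mostly says that a gene separates these sets, and r over the other 9 libraries is given too. These values are descriptions of genes that share libraries and depth, with no test. Cdkn1a was most like Eif1 (r = 0.998, and 0.917 over 9 libraries), Dusp8 (0.998 and 0.912) and Btg2 (0.996 and 0.92). Gadd45a was most like Ciart (0.995 and 0.96), Riok3 (0.995 and 0.957) and Vegfa (0.994 and 0.97). For Gadd45b the nearest genes were Dusp5 (0.996 and 0.944), Plaur (0.996 and 0.938) and Ier5 (0.995 and 0.913), and for Cdkn1b they were Cdc26 (0.997 and 0.921), Rbm5 (0.996 and 0.921) and Mogs (0.996 and 0.891). Mdm2 was nearest to Anxa3 (0.994 and 0.929), Ube2d3 (0.989 and 0.889) and Odc1 (0.989 and 0.93). Lower values of r were seen for the other 4 genes. Gadd45g was nearest to Txn1 (0.957 and 0.956), Tpm1 (0.949 and 0.941) and Higd1a (0.949 and 0.913), Ccng2 to Hbp1 (0.938 and 0.889), Enpp3 (0.938 and 0.921) and Cnnm4 (0.936 and 0.868), and Cdkn1c to Nr1d1 (0.894 and 0.662), Cnppd1 (0.892 and 0.651) and Cebpb (0.89 and 0.712). Ccng1 was nearest to Ddx1 (0.858 and 0.929), Serpinb7 (0.85 and 0.929) and Epha10 (0.825 and 0.838).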

How the data were processed

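Total RNA from 15 libraries was sequenced. The authors deposited raw, whole-number read counts for each gene identifier. Per the submitters' processing notes, bcl2fastq, CASAVA 1.8, TopHat, DESeq and the rat build rn4 were used, with no roles given. How reads were counted, and with which annotation and strand setting, is not given in the sources used here. Reads shared between overlapping genes could therefore not be told apart, but none of the 9 genes overlaps another gene of the table in RefSeq.

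Of 16832 identifiers 16671 matched a symbol in a RefSeq table of GRCr8, used for names, and 161 did not (0.510% to 0.681% of counts per library). All 15 libraries entered 1 model of the 5 groups, tested by quasi-likelihood F in edgeR 4.0.16 (limma 3.58.1, R 4.3.3) with TMM scaling. After filterByExpr took out 6257 identifiers, 10575 were tested, and a call is a Benjamini-Hochberg adjusted p under 0.05 over all of them. Fold changes are from the fit, and errors are standard errors unless given as SD. The detection floor of 3 counts equals 0.0853 to 0.290 CPM and covers counting error only. The fit was tested on simulated data.

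Alternatives were DESeq2 1.42.0, limma-voom, other scalings and filters, fits to the 6 libraries compared, a replicate block, each library left out, the alike libraries of 24 h and 200 µM left out or summed in pairs, and a model term marking the 4 libraries that held heart transcripts. List counts under 3 of these settings were added after seeing the data. Named genes were the 9, up to 3 called genes of each list with the smallest adjusted p in each comparison with control, and the 3 most alike genes of each member. A few genes named by this rule are left out of the text. The members and lists were chosen with earlier results of these data known. Promoter matches were counted in Python 3.11.15.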

Additional observations from a re-analysis of the deposited data

Results flagged for a closer look

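Levels differed between the libraries labelled 100 µM for 12 h and for 24 h for 7 of the 9 genes. This was a direct edgeR test of the 2 groups, which called 26.9% of all tested genes higher and 27.6% lower. With no control labelled for each time, length of exposure and time in culture cannot be told apart. The log2 differences of 24 h from 12 h were 0.94 for Mdm2 (adjusted p = 1.7e-06), 2.40 for Cdkn1a (5.46e-12), -1.69 for Cdkn1b (2.55e-13), 0.75 for Cdkn1c (0.0165), 2.62 for Gadd45a (3.51e-10), 2.64 for Gadd45b (2.33e-12) and 0.61 for Ccng2 (0.000564). For each of these 7 genes the 12 h and 24 h libraries did not overlap. The genes were called from the same libraries, so this is no separate support, and the share of all genes without overlap is not given here. The Cdkn1c call was lost in some alternatives (kept in 13 of 17), as was that of Ccng2 (kept in 16 of 17). The 24 h libraries agree in pairs with those at 200 µM for 6 h, so these differences are also close to those between 12 h at 100 µM and 6 h at 200 µM.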

How the results depend on the processing

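Of the 40 calls of single genes over the 7 comparisons with control, between doses and between neighbouring times, 27 kept their direction and call in every alternative run and 13 lost the call in at least 1. Those kept everywhere include Mdm2, Cdkn1a, Cdkn1b, Gadd45a, Gadd45b and Gadd45g at 24 h and 200 µM against control, and Cdkn1b, Gadd45a, Gadd45b and Gadd45g at 6 h. The number of the 9 genes called moved past 1.5 times its value in 3 cases: at 12 h against control it went from 4 to 0 with the heart-transcript term, and between 6 and 12 h it went from 0 to 1 in the 6-library fit and in the fit with a replicate block. Over all genes the heart-transcript term left 933 calls of 1819 at 6 h and 50 of 669 at 12 h. That term marks every control and, besides them, only replicate 1 of the 6 h group, so a call can be lost under it through a wider error alone. At 12 h the log2 ratio of Gadd45b was larger with the term (0.91) than without it (0.64), yet it was not called. With each library left out in turn, the number called was 4 to 6 at 6 h, 3 to 4 at 12 h, 6 to 8 at 24 h, 6 to 8 at 200 µM, 7 to 8 between doses, 0 between 6 and 12 h and 6 to 7 between 12 and 24 h. With all libraries in the fit, 1819, 669, 6449, 6402, 5663, 103 and 5766 of all 10575 tested genes were called, in the same order. Counts over all genes with libraries left out are not given here.

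The replicate numbers did not pair the libraries by the rule used (a correlation over 0.1 for every number); at 24 h against control the correlations were 0.107, 0.24 and 0.0792. With the replicate block the numbers of the 9 genes called were 7, 5, 9, 9, 8, 1 and 7 in the order above. The counts over all genes with the block are not given here, so these numbers say nothing particular to the 9 genes. Each library correlated best with its own number in 3, 3, 5, 3, 6, 3 and 4 of 6. The block added Ccng1 at 6 h (-0.45 ± 0.11, adjusted p = 0.0131), 24 h (-0.26 ± 0.08, 0.00537) and 200 µM (-0.28 ± 0.11, 0.0489), Ccng2 at 12 h (-0.30, 0.0433) and Cdkn1c at 24 h (0.48, 0.0465).

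Log2 ratios that changed sign were uncalled in that alternative. Against control, Cdkn1c at 6 h was at -0.0406 without control replicate 1 and -0.0591 without 6 h replicate 1 (range over left-out libraries -0.0591 to 0.3994). At 12 h it was at 9e-04 when control replicate 2 was left out (range -0.4622 to 9e-04) and 0.0291 under the heart-transcript term. Mdm2 at 12 h was at 0.0835 without control replicate 1 and 0.0165 without 12 h replicate 2 (range -0.1556 to 0.0835), and 0.0516 under the heart-transcript term. Ccng2 under library totals was at -0.058 at 24 h and -0.0656 at 200 µM. Between doses Ccng1 was at -0.1765 under library totals and -0.07 without 200 µM replicate 3 (range -0.07 to 0.3248). Between 6 and 12 h Ccng2 was at -0.0225 without 6 h replicate 3 and -0.0024 without 12 h replicate 2 (range -0.0225 to 0.2276). Between 12 and 24 h Gadd45g was at -0.1986 under library totals, and Ccng1 at 0.0102 and 0.0105 without 12 h replicates 1 and 3 and 0.0872 and 0.024 without 24 h replicates 2 and 3 (range -0.267 to 0.0872). The cause was not tested. Depth limits Cdkn1c, at 19 to 97 counts per library.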

Other observations

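Of 18 tested G1 cyclins, CDKs and their substrates, 3 rose and 2 fell at 6 h, where 9.1% of all tested genes rose and 8.1% fell. Both at 24 h and at 200 µM 6 rose and 6 fell, near the shares of all genes (29.7% and 31.3% at 24 h, 29.4% and 31.1% at 200 µM). Skp2, whose protein targets p27 for degradation, fell by 0.98 ± 0.09 at 24 h and by 1.05 ± 0.09 at 200 µM on the log2 scale, in the same libraries in which the Cdkn1b transcript was lower. Cdk6 rose (0.86 ± 0.10 and 0.83 ± 0.10) and the pocket protein gene Rbl1 fell (-0.75 ± 0.10 and -0.66 ± 0.10). Under library totals the G1 split was 3 higher and 13 lower at 24 h. That setting called 7990 of all 10575 tested genes, and 16.2% of these were higher. With the heart-transcript term the G1 split was 3 and 2 at 24 h, where 3880 of all tested genes were called. The median log2 ratio of the list was -0.03 at 24 h against -0.02 over all genes.

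Of 11 tested genes for partners of the Gadd45 proteins, 3 rose and 3 fell at 24 h and at 200 µM. This was also near the shares of all genes under TMM scaling (29.7% and 31.3% at 24 h, 29.4% and 31.1% at 200 µM). Map2k3, a kinase upstream of p38, rose by 0.98 ± 0.07 and 1.00 ± 0.07, whereas Map3k4, the kinase that Gadd45 proteins bind, fell by 0.93 ± 0.08 and 0.98 ± 0.08, and Mapk14 (p38 alpha) fell by 0.39 ± 0.06 and 0.42 ± 0.06. Under library totals 2 partners were higher and 7 lower at 24 h, where 7990 of all tested genes were called and 16.2% of these were higher. With the heart-transcript term it was 2 and 2, where 3880 of all tested genes were called. Map2k3 was also the one partner called at 6 h and at 12 h, and it rose at both. Among all tested genes 9.1% rose at 6 h and 3.36% at 12 h. With the heart-transcript term no partner was called at 12 h, where 50 of all 10575 tested genes were. Of 12 tested FOXO factors and targets, 7 rose and 3 fell at 24 h, and 7 rose and 4 fell at 200 µM, where 29.7% and 31.3% of all genes rose and fell at 24 h and 29.4% and 31.1% at 200 µM. The median log2 ratio of the list was 0.65 in both against -0.02 over all genes. The arrestin-like gene Txnip went from a mean of 330 CPM in control cells to 47.4 at 24 h (log2 ratio -2.80 ± 0.13), and the repressor gene Bcl6 from 39.5 to 130 (1.72 ± 0.10). Under library totals the FOXO split was 7 higher and 4 lower at 24 h, beside the same 7990 calls over all tested genes, of which 16.2% were higher.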
